A study of Mus musculus with 6 samples.

Results

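Condensins are described here through the 8 genes that encode their mouse subunits, Smc2, Smc4, Ncapd2, Ncapg, Ncaph, Ncapd3, Ncapg2 and Ncaph2. All non-control array probes whose gene name in the scanner files is one of these symbols were taken, whatever their signal, which gave 16 of 41174 probes and 8 of 27745 gene names. Of the 16 probes, 6 belong to Smc2 and Smc4, 5 to condensin I subunits and 5 to condensin II subunits. Smc2 has 4 probes, Ncapg2 and Ncaph have 1 each, and the other 5 genes have 2 each.

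Condensins are ring-shaped ATPases that fold and stiffen chromosomes in mitosis and meiosis. Smc2 and Smc4 form the hinged core of both complexes. Condensin I adds the kleisin Ncaph, which closes the ring, and the HEAT-repeat subunits Ncapd2 and Ncapg; it is largely cytoplasmic in interphase and reaches chromosomes after nuclear envelope breakdown. Condensin II adds the kleisin Ncaph2 and the HEAT-repeat subunits Ncapd3 and Ncapg2, and it is nuclear through interphase. In mouse oocytes both complexes act on the meiotic chromosomes, and in cleaving embryos they act at each mitosis.

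RNA was measured on 6 single-colour arrays, 1 sample per array, all of B6C3 F1 mice. There were 2 arrays of climacteric blastocysts and 2 of young blastocysts, and 1 array each of climacteric and young ooplasts. Climacteric is the labels' word for the older, reproductively declining group, and ages in weeks or months are not given in the sources used here. A blastocyst is the hollow embryo in which trophectoderm surrounds an inner cell mass, and an ooplast is an oocyte from which the chromosomes have been taken out. How the blastocysts were made, how many embryos or ooplasts were pooled on an array and from how many females are likewise not given in the sources used here. The replicates are called biological in the design text, with no animal named, so a p-value measures the spread between these arrays.

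A level below is the log2 processed signal of a probe minus the 75th percentile of its array, so 0 is the signal that 25% of the spots exceed. That percentile was 721.2 to 1111.5 units on the blastocyst arrays, against 237.8 and 235.5 on the climacteric and young ooplast arrays. A level can therefore be lower in blastocysts where the raw signal is higher. The share of spots well above background ran from 54.9 to 57.3% on climacteric blastocyst arrays, from 49.9 to 52.7% on young blastocyst arrays, and was 42.2 and 42.4% on the climacteric and young ooplast arrays. Slide 1 carried the pair of ooplast arrays together with the blastocyst arrays numbered 1, and slide 2 the blastocyst arrays numbered 2. Oocyte markers were low on the blastocyst arrays, with a summed level of 1.36 to 1.86, against 12.09 and 12.15 on the climacteric and young ooplast arrays, and 7 of 7 tested were lower in blastocysts. Mos, Nlrp5 and Zar1 were above background on no blastocyst array. Of the 6 trophectoderm markers 5 were higher in blastocysts, and so were 5 of the 6 markers of inner cell mass and primitive endoderm, of which Nanog, Sox2 and Pdgfra were above background on no ooplast array. Cumulus and granulosa markers had a summed level of 2.01 to 2.31 in blastocysts, against 6.41 and 6.47 in climacteric and young ooplasts, and 4 of 5 tested were lower in blastocysts.

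Some arrays stood apart. Macrophage markers had a summed level of 5.22 and 1.16 on the climacteric blastocyst arrays and 1.13 and 1.40 on the young ones, and of 5.10 on the climacteric ooplast array, against 1.28 on the young ooplast array. Lyz2, the macrophage lysozyme, accounts for the high climacteric blastocyst array, where it stood at 5.07. In climacteric ooplasts Lyz2 stood at 3.95, Fcer1g at 3.84 and Adgre1 at 0.89, against -4.48, 0.28 and -2.78 in young ooplasts. Itgam was above background on no array. The part that these cells or arrays have in the values below was not tested. Without climacteric blastocyst replicate 1 no condensin call for stage or age changed, and the age differences it moved most are given below.

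Of the 16 condensin probes, 11 were well above background on all 6 arrays, 3 on some arrays and 2 on none. Those 2, a probe for Smc2 and one for Ncapd3, stayed between -6.11 and -4.18 throughout and give no level. Each of the 8 genes had at least 1 probe above background on 3 or 4 blastocyst arrays.

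**Figure D1:**
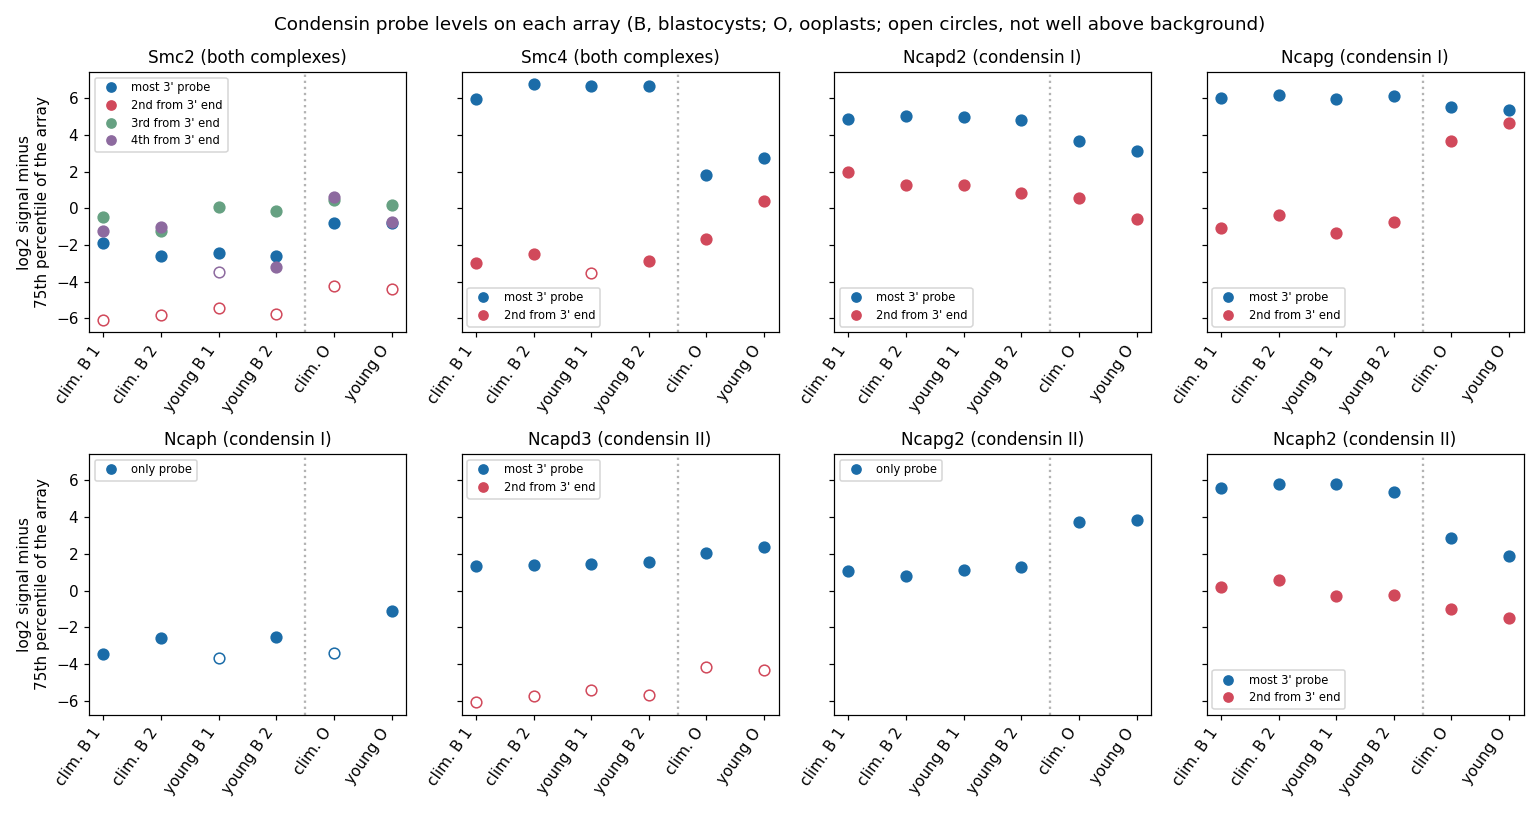
Level of each condensin probe (log2 signal minus the 75th percentile of the array) on the 4 blastocyst and 2 ooplast arrays, 1 panel per gene and 1 colour per probe, ordered by distance from the 3′ end; open circles are not well above background. The Smc4 and Ncaph2 probes nearest the 3′ end are higher on all blastocyst arrays than on both ooplast arrays, Ncapg2 is lower, and the pair of Ncapg probes part by stage.

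The stage comparison asked how condensin transcripts differ between the embryo and the oocyte cytoplasm. Blastocysts had higher levels of Smc4, Ncapd2 and Ncaph2 at the leading (brightest) probe of each gene, and lower levels of Ncapg2 and Ncapd3. The Ncapd3 call was lost under several settings. The largest rise was 19.0-fold, for Smc4, and the largest fall at a leading probe was 6.62-fold, for Ncapg2. In all, 13 condensin probes were tested with limma, a linear model fitted over all probes, and 11 passed, 5 of them higher and 6 lower in blastocysts, which is 84.6% of those tested. Stage changed most of the array: 73.7% of all 20996 probes tested passed at an adjusted p below 0.05, 35.5% higher and 38.2% lower, and 76% had an unadjusted p below 0.05, which 12 of the 13 condensin probes had. Counted once per gene, 3 leading probes passed higher and 2 lower. Smc2 enters the members' median with more than 1 probe, and that median is the value of its leading probe. By probe, the members' median log2 change was -0.76, against -0.22 over all probes tested. That overall median lay between -0.44 and -0.09 under the other scalings, and none of the 13 condensin directions turned under any of them or after taking off the overall median. In RNA from whole samples, fewer cells of a type and less RNA per cell cannot be told apart.

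**Figure D2:**
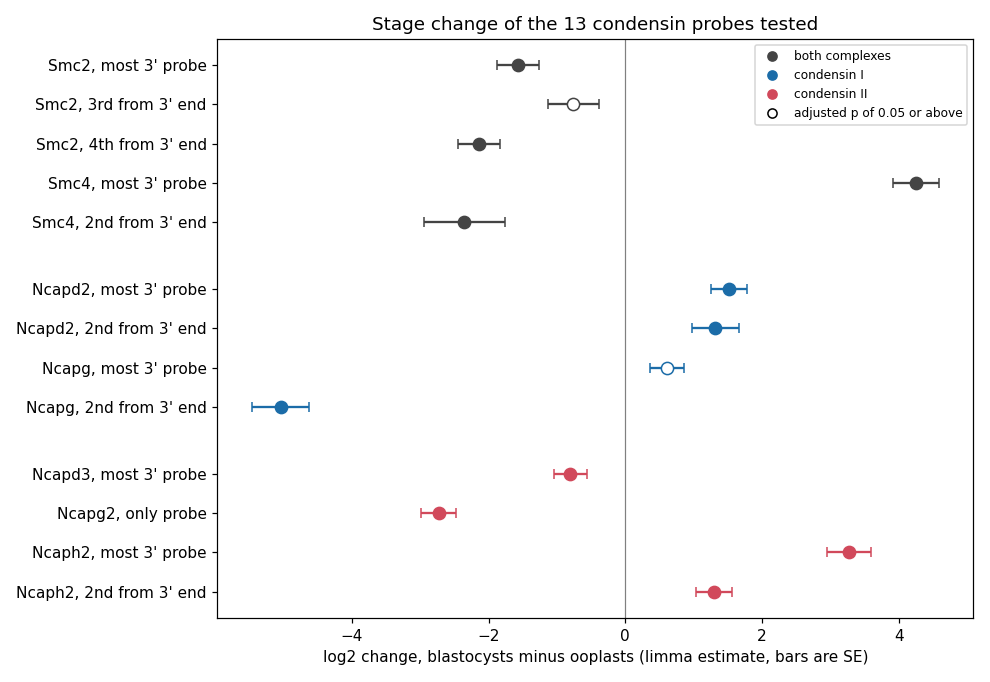
Stage change of the 13 condensin probes tested (log2, blastocysts minus ooplasts; limma estimate with its SE, 4 against 2 arrays), grouped by complex; open circles did not pass an adjusted p of 0.05. Changes run from -5.04 for the inner Ncapg probe to 4.25 for the Smc4 probe nearest the 3′ end, and each complex holds changes on both sides of 0.

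Promoter sequence sets the subunits with opposite stage changes side by side. RefSeq (GRCm38.p6) gave 8 windows of 300 bases, 250 before the transcription start and 50 from it on, for 7 of the 8 genes, with 2 windows for Ncapd3. Both strands were searched for motifs known from mammalian cell cycle promoters. The cell cycle homology region, TTTGAA, which the DREAM complex binds, occurred in the windows of Smc2, Ncapd2, Ncapg and Ncapg2 and in the second window of Ncapd3. It occurs in 17.9% of all 32851 windows of that length. The CCAAT box, bound by NF-Y, occurred in Smc2, Ncapd2 and Ncapg, and in 37.4% of all windows. The E2F site TTTGGCGC occurred in Ncapd2 and TTTCCCGC in Ncapg and Ncapg2, against 0.514 and 1.07% of all windows, and 1.56% for either. Ncaph, Ncaph2 and the first Ncapd3 window held none of these letters. No match overlapped another. Below are 210 bases of 4 windows, from 180 before the start to the first 30 from it, 5′ to 3′ on the gene's strand, with motif matches on either strand in capitals. They lie at chr6:125191557-125191766 (minus strand) for Ncapd2, chr5:45669745-45669954 (plus) for Ncapg, chr12:116405256-116405465 (plus) for Ncapg2 and chr15:89355539-89355748 (plus) for Ncaph2.
Ncapd2: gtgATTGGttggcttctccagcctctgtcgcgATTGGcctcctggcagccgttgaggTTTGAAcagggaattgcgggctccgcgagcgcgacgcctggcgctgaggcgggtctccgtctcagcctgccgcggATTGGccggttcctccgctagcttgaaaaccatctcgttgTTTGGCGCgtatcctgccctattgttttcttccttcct
Ncapg: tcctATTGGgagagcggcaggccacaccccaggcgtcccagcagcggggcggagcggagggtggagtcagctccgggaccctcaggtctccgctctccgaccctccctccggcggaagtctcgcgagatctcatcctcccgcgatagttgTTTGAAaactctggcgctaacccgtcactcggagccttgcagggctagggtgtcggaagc
Ncapg2: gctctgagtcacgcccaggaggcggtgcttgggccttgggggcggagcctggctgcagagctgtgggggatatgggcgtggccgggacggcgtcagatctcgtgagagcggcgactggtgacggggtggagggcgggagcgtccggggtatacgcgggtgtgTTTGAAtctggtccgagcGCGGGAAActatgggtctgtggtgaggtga
Ncaph2: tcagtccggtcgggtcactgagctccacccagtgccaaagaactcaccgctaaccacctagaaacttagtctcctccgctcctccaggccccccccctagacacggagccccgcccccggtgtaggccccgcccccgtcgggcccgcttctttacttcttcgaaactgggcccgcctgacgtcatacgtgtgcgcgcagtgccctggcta
Ncapd2, with 3 CCAAT boxes, a TTTGAA and an E2F site just before the start, was higher in blastocysts, and so was Ncaph2, whose window has no capitals. Ncapg2, with a TTTGAA 18 bases before the start and an E2F site at it, was lower. The E2F match of Ncapg, at 31 to 38 from the start, lies outside the bases shown. So does another E2F match of Ncapg2, at -249 to -242. A match is a description of these letters, and factor binding was not measured.

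Of the core subunits, Smc4 was higher in blastocysts at its leading probe. The probe for Smc4 nearest the 3′ end (A_51_P111210, mm8 chr3:69122460-69122519, plus strand) stood at 5.96 and 6.78 in climacteric and 6.64 and 6.67 in young blastocysts, against 1.79 in climacteric and 2.74 in young ooplasts. The mean was 6.51 ± 0.37 in blastocysts and 2.26 ± 0.67 in ooplasts (SD, n = 4 and 2), and the groups lay far apart. The log2 change was 4.25 ± 0.34 (SE), or 19.0-fold, with a limma adjusted p of 6.86e-05. A second Smc4 probe, 6046 bases upstream in the genome (chr3:69116415-69116473) and designed on a clone cDNA, ran the other way. It stood at -2.98, -2.47, -3.54 and -2.87 in climacteric and then young blastocysts, against -1.65 in climacteric and 0.42 in young ooplasts. It was above background on 3 of 4 blastocyst arrays and both ooplast arrays. Its log2 change was -2.35 ± 0.60 with a limma adjusted p of 0.0113. Without the young ooplast array the change was -1.08 with a limma adjusted p of 0.0959, and without the climacteric one -3.63, so the size rests on which ooplast array is used.

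Smc2, the partner of Smc4 in the core, had lower levels in blastocysts at each of its 3 measured probes, at 2 of them past the threshold. The probe nearest the 3′ end (A_51_P265660, chr4:52508303-52508362, plus strand) stood at -1.89 and -2.60 in climacteric and -2.42 and -2.62 in young blastocysts, against -0.82 and -0.79 in climacteric and young ooplasts. Its log2 change was -1.57 ± 0.31, a 2.98-fold fall (limma adjusted p = 0.00362). The brightest Smc2 probe, 19359 bases upstream (A_52_P636199, chr4:52488944-52489003), stood at -0.49 and -1.23 in climacteric and 0.06 and -0.15 in young blastocysts, against 0.43 and 0.19 in ooplasts of the same ages. The groups did not overlap there, yet the log2 change of -0.76 ± 0.37 missed the threshold (limma adjusted p = 0.104, interval -1.65 to 0.13). It was -0.24 without the climacteric and -1.28 without the young ooplast array, and under normexp it passed narrowly (-0.72, limma adjusted p = 0.04995). The fourth Smc2 probe, 29980 bases upstream (A_51_P484537, chr4:52472439-52478382, a span longer than the probe itself), stood at -1.25 and -0.99 in climacteric and -3.46 and -3.18 in young blastocysts, against 0.61 in climacteric and -0.77 in young ooplasts. Its log2 change was -2.14 ± 0.30 (limma adjusted p = 0.000885), and -1.49 under normexp background correction. The raw signal of the 3′ probe was 134.9 to 286.5 units in blastocysts, against 134.4 and 136 in climacteric and young ooplasts. For the brightest probe it was 363.9 to 1002.7, against 319.4 and 268.8. For the fourth it was 65.6 to 448.4, against 363.2 and 138.2. The lower Smc2 levels at the 3′ and brightest probes are thus relative to the percentile of each array.

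Among condensin I subunits Ncapd2, a HEAT-repeat subunit, was higher in blastocysts at both of its probes. The probe nearest the 3′ end (A_51_P202074, chr6:125133613-125133667, minus strand) stood at 4.87 and 5.01 in climacteric and 4.94 and 4.82 in young blastocysts, against 3.66 and 3.12 in climacteric and young ooplasts. The 4 blastocyst arrays differed from each other by far less than from either ooplast array, with means of 4.91 ± 0.08 and 3.39 ± 0.38 (SD, n = 4 and 2). The log2 change was 1.52 ± 0.26, or 2.86-fold (limma adjusted p = 0.00219). The second probe, 657 bases upstream (A_52_P139399, chr6:125134270-125134329), stood at 1.95 and 1.24 in climacteric and 1.28 and 0.81 in young blastocysts, against 0.58 and -0.58 in climacteric and young ooplasts. Its log2 change was 1.32 ± 0.34 (limma adjusted p = 0.0121), and 1.01 with a limma adjusted p of 0.113 without the young ooplast array. One more probe carries the older name 2810465G24Rik, which RefSeq lists as a synonym of Ncapd2, and lies outside the naming rule used here. Its log2 change was 0.88 ± 0.68 (limma adjusted p = 0.272), and its levels ran from -2.32 to -0.04 in blastocysts, against -1.60 in climacteric and -3.11 in young ooplasts.

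Ncapg, the other HEAT-repeat subunit of condensin I, gave the strongest disagreement between probes. Its probe nearest the 3′ end (A_51_P489268, chr5:45988306-45988364, plus strand) stood at 5.99 and 6.17 in climacteric and 5.94 and 6.11 in young blastocysts, against 5.53 and 5.35 in climacteric and young ooplasts. All blastocyst arrays were above both ooplast arrays, and the log2 change was 0.61 ± 0.25 with a limma adjusted p of 0.0622. It passed under quantile normalization (0.86, limma adjusted p = 0.0216), normexp (1.00, adjusted p = 0.0046 by limma) and the authors' deposited values (0.82, adjusted p = 0.0256 by limma). It also passed narrowly when only probes above background on all arrays were tested (0.61, limma adjusted p = 0.04785). It did not pass with the percentile taken over probes detected on all arrays (0.40, limma adjusted p = 0.178), with the slide as a block (0.53, limma adjusted p = 0.164) or without any 1 array. The second probe, 18311 bases upstream (A_52_P324584, chr5:45969994-45970053), stood at -1.10 and -0.36 in climacteric and -1.34 and -0.74 in young blastocysts, against 3.66 and 4.64 in climacteric and young ooplasts. Its raw signal was 284.3 to 664.2 units in blastocysts, against 3014.6 and 5883.4 in ooplasts. The change of -5.04 ± 0.42, a 32.9-fold fall, was the largest of all condensin probes (limma adjusted p = 8.2e-05), and it was -4.39 without the young and -5.69 without the climacteric ooplast array. In the RefSeq gene table Ncapg overlaps Lcorl.

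Ncaph, the kleisin of condensin I, was near the limit of detection. Its only probe (A_52_P363039, chr2:126799987-126800046, minus strand) stood at -3.43 and -2.56 in climacteric and -3.70 and -2.54 in young blastocysts, against -3.41 in climacteric and -1.10 in young ooplasts. It was above background on both climacteric blastocyst arrays, on 1 of 2 young blastocyst arrays and on the young ooplast array only. The stages overlapped and the probe was not tested for stage. No kleisin level of condensin I can be set against that of condensin II from this probe.

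Of the condensin II subunits, Ncaph2, its kleisin, was higher in blastocysts at both probes. The probe nearest the 3′ end (A_51_P317618, chr15:89200520-89200579, plus strand) stood at 5.60 and 5.81 in climacteric and 5.78 and 5.39 in young blastocysts, against 2.88 and 1.86 in climacteric and young ooplasts. The mean was 5.65 ± 0.20 in blastocysts and 2.37 ± 0.72 in ooplasts (SD, n = 4 and 2), and the log2 change of 3.27 ± 0.32 is 9.67-fold (limma adjusted p = 0.000157). The second probe, 9364 bases upstream (A_52_P371466, chr15:89188183-89191215, likewise longer than the probe), stood at 0.20 and 0.59 in climacteric and -0.30 and -0.25 in young blastocysts, against -0.99 and -1.49 in climacteric and young ooplasts. Its log2 change was 1.30 ± 0.26 (limma adjusted p = 0.0043), and 0.65 under normexp. Ncaph2 overlaps Sco2 and Tymp in the RefSeq gene table.

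The HEAT-repeat subunits of condensin II had lower levels in blastocysts, though for Ncapd3 the call depended on the settings. Ncapg2 (only probe, A_51_P424810, chr12:116905250-116905309, plus strand) stood at 1.04 and 0.82 in climacteric and 1.12 and 1.31 in young blastocysts, against 3.75 and 3.85 in climacteric and young ooplasts. Ncapg2 fell by 2.73 ± 0.25 on the log2 scale, or 6.62-fold (limma adjusted p = 0.00013), and the change was -2.82 without the young and -2.63 without the climacteric ooplast array. Ncapd3 at its detected probe (A_51_P431669, chr9:26844529-26844588, plus strand) stood at 1.32 and 1.37 in climacteric and 1.45 and 1.53 in young blastocysts, against 2.06 and 2.38 in climacteric and young ooplasts. All blastocyst levels were lower, and the log2 change was -0.80 ± 0.24, or 1.74-fold (limma adjusted p = 0.0233). The raw Ncapd3 signal was higher in blastocysts, at 1974.6 to 3214.6 units, against 988.8 and 1228.9 in climacteric and young ooplasts. Its fall is thus relative to the percentile of each array. The Ncapd3 call was lost under several settings: without the young or the climacteric ooplast array the limma adjusted p was 0.128 or 0.0773, without young blastocyst replicate 1 or 2 it was 0.0525 or 0.0579, and with the slide as a block it was 0.0522. Normexp gave -0.50 (limma adjusted p = 0.0566).

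The complexes are set side by side through their leading probes. In condensin I both tested subunits had positive log2 stage changes, 1.52 for Ncapd2, which passed, and 0.61 for Ncapg, which did not, with a mean of 1.07. With Ncaph, untested and not above background on all arrays of either stage, at -0.80, the mean over 3 subunits was 0.44, and it lay between 0.23 and 0.59 under the other scalings. The sign of both means depends on which Ncapg probe is taken. With the inner Ncapg probe, at -5.04, in place of the leading one, both would be negative. In condensin II the subunits parted, with Ncaph2 at 3.27, Ncapd3 at -0.80 and Ncapg2 at -2.73. Their mean was -0.09, and it was 0.21 under normexp and between -0.30 and -0.27 under the other scalings. The core pair had a mean of 1.74, with Smc2 at -0.76 and Smc4 at 4.25. With the inner Smc4 probe, at -2.35, that mean would be negative too. The difference between the complexes was not tested.

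Probes of one gene were compared by the change each gave. Of 5 genes with more than 1 tested probe, 3 (Smc2, Ncapd2 and Ncaph2) had estimates in 1 direction, while Smc4 and Ncapg had a higher 3′ probe and a lower inner probe in blastocysts. For Smc4, Ncapg and Ncaph2 the change was more positive at the 3′ probe than at the inner probe by more than both errors. The Ncapd2 probes, 657 bases apart, gave 1.52 and 1.32. Smc2 had no such order. Its 3′ probe, at -1.57 ± 0.31, lay below the brightest probe, at -0.76 ± 0.37, and above the fourth, at -2.14 ± 0.30. Which transcripts the inner probes detect cannot be told from the files, which hold no probe sequences, and what the positions do to the values was not tested. Smc4, whose inner probe was drawn from a clone cDNA, hosts the microRNA genes Mir15b and Mir16-2.

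**Figure D3:**
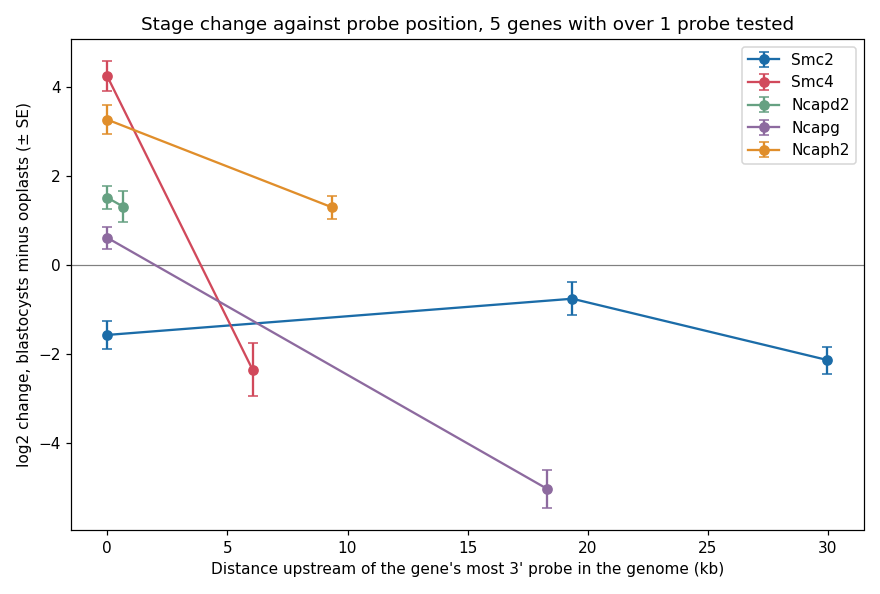
Stage change (log2, blastocysts minus ooplasts, with SE) of each tested probe against its distance in the genome upstream of the gene's most 3′ probe (kb), 1 colour per gene, for the 5 genes with over 1 tested probe. The Smc4 and Ncapg lines cross 0, the Ncapd2 and Ncaph2 lines stay above it and the 3 Smc2 points stay below it.

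Genes that work beside condensin also split by stage. Each listed gene was read by its brightest probe only, so other probes of these genes could differ. Of 28 genes of the other SMC complexes and of cohesin control, 12 were higher in blastocysts, 10 lower and 6 did not pass, with a median log2 change of 0.25. Over all probes tested, 35.5% were higher and 38.2% lower, so a split of this kind is not particular to the list. Stag2, a cohesin subunit, rose by 4.58 ± 0.39 on the log2 scale, and Smc6, of the Smc5/6 complex, by 3.18 ± 0.28. Smc5 was above background on no ooplast array. Its bound, at least 21.5-fold higher in blastocysts, equals the observed log2 change of 4.43 ± 0.25 and carries that error. Nipbl, the cohesin loader, rose by 4.68 ± 0.47 with 1 ooplast array above background. Pttg1 (securin) had a log2 change of -3.48 ± 0.30, Nsmce3, of the Smc5/6 complex, of -4.39 ± 0.46, Espl1 (separase) of -3.42 ± 0.51 with 3 blastocyst arrays above background, and the cohesin acetyltransferase Esco1 of -4.04 ± 0.44 with 1. This list, like the condensin subunits, held changes in both directions, as did the array as a whole.

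Among 26 tested condensation partners and regulators, 10 were higher, 8 lower and 8 did not pass, with a median of 0.29, against 35.5% higher and 38.2% lower over all probes tested. At its brightest probe Cdk1, the mitotic kinase that phosphorylates condensin, was above background on no ooplast array and at least 13.6-fold higher in blastocysts. Other Cdk1 probes were not examined, so this does not show that the transcript is absent from ooplasts. Aurkb, the chromosomal passenger kinase, rose by 3.96 ± 0.35 with 1 ooplast array above background, Set by 4.01 ± 0.36 and Acin1 by 4.20 ± 0.28. H1f8, the oocyte linker histone, had a log2 change of -9.05 ± 0.34, and the histone kinase Haspin of -4.76 ± 0.34. Top2a, the topoisomerase that works with condensin on mitotic chromosomes, had one of -2.43 ± 0.30, and Plk1, which phosphorylates condensin II in human cells, of -1.52 ± 0.25. Of 14 DNA replication genes 5 were higher, 2 lower and 7 did not pass, with a median of -0.22. The lower share was smaller there than the 38.2% over all probes, in a short list. Tyms (thymidylate synthase) rose by 6.44 ± 0.28, Rrm1 by 1.98 ± 0.26, Mcm5 by 1.79 ± 0.42 and Rrm2 by 1.43 ± 0.26, while the helicase subunits Mcm2 and Mcm4 had log2 changes of -1.04 ± 0.25 and -0.93 ± 0.25. Errors are SE from limma, and the limma adjusted p of every gene named was at most 0.0135.

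The gene whose profile lay closest to each leading condensin probe was found over the 6 arrays among 11773 probes above background on all of them. Likeness was the root mean square difference of centred log2 levels. Ncapd2 lay closest to Vdac1 (0.040), Ncapg to Mfap3 (0.052), Ncapd3 to Rnf157 (0.064), Smc2 to Dido1 (0.067), Ncapg2 to Cep57l1 (0.072), Ncaph2 to Glb1 (0.086) and Smc4 to Sgk1 (0.133). None of these is a condensin subunit, and Ncaph was left out because it was not above background on all arrays. The 6 arrays share 2 stages and 2 slides, so this likeness is a description of these arrays.

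The age comparison in blastocysts asked whether climacteric blastocysts differ from young ones in condensin transcripts, on 2 against 2 arrays. None of the 14 condensin probes tested passed, and neither did any other probe: 0% of 21662 probes passed, 0 higher and 0 lower, with 5.59% at an unadjusted p below 0.05, against 1 of the 14 condensin probes. The members' median log2 difference, climacteric minus young, was 0.12, against 0.01 over all probes tested. The fit for this comparison also recovered none of the changes put into simulated data, so the absence of calls does not show that nothing changed. With 2 arrays against 2, the 95% intervals below show what size of difference these data leave possible.

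At the leading probes no age difference in blastocysts passed. Ncapg had a difference of 0.06 (95% interval -0.69 to 0.81), Ncapd2 of 0.06 (-0.68 to 0.80), Ncaph2 of 0.12 (-0.69 to 0.93) and Ncaph of 0.12 (-1.23 to 1.47). Ncapd3 had a difference of -0.15 (-0.88 to 0.58), Ncapg2 of -0.29 (-1.05 to 0.48), Smc4 of -0.28 (-1.25 to 0.69) and Smc2 of -0.81 (-1.76 to 0.13). The limma adjusted p was at least 0.989 for all 8. All 8 intervals include 0, and they reach to differences of at least 0.80 in one direction or the other, so they do not show that the ages are alike. Ncapg2 was lower on both slides, by 0.08 and 0.49, Smc2 by 0.54 and 1.08, and Ncapd3 by 0.13 and 0.17. Ncapg was higher on both, by 0.06 and 0.07. Without climacteric blastocyst replicate 1, the array with high Lyz2, the difference was 0.13 for leading Smc4, -0.08 for the Smc2 probe nearest the 3′ end (0.28 with all arrays), 0.56 for Ncaph and 0.20 for the inner Ncapd2 probe (0.55 with all arrays). Leading Smc2 was then at -1.18 and the inner Ncapg probe at 0.68, against 0.31 with all arrays.

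The fourth Smc2 probe, the most upstream, was the only one at an unadjusted p below 0.05. It stood at -1.25 and -0.99 in climacteric and -3.46 and -3.18 in young blastocysts, and the groups did not overlap. The difference was 2.20 ± 0.31 (SE, 95% interval 1.41 to 2.98), 2.21 on slide 1 and 2.18 on slide 2, and its limma adjusted p was 0.378. Only 1 of the 2 young arrays was above background there, and the difference was 1.33 under normexp. Without climacteric blastocyst replicate 1 it was 2.32. The other measured Smc2 probes gave 0.28 and -0.81, so the gene's probes did not share a direction. The inner Ncaph2 probe was also higher on both climacteric arrays, 0.20 and 0.59, against -0.30 and -0.25 on the young ones, with a difference of 0.67 (-0.12 to 1.46) and a limma adjusted p of 0.996.

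**Figure D4:**
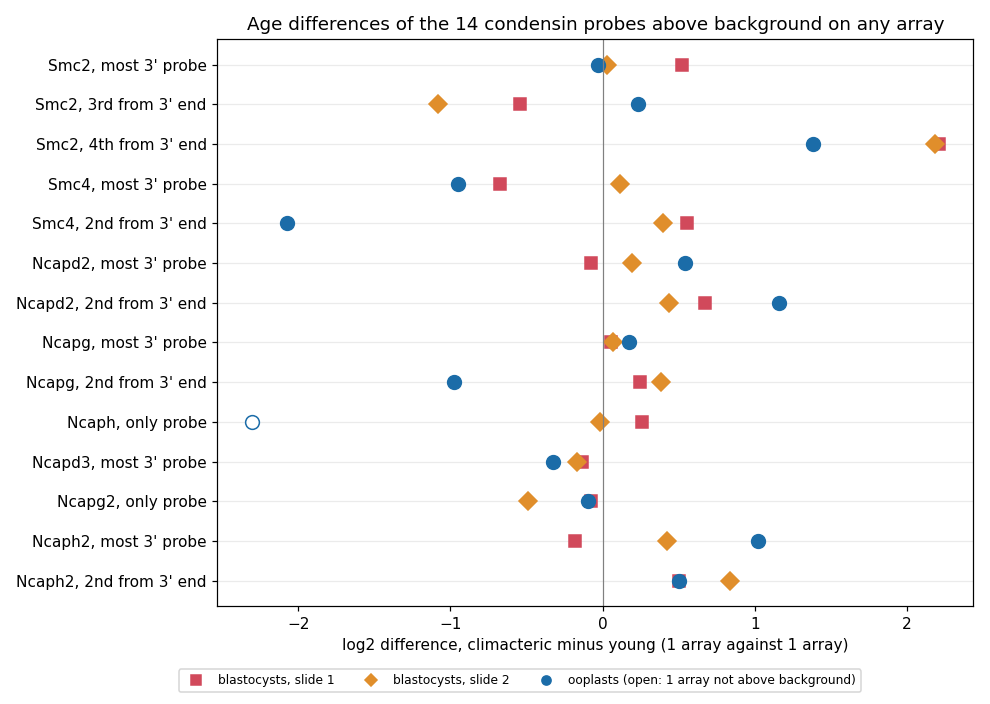
Age difference (log2, climacteric minus young, 1 array against 1) of the 14 condensin probes above background on any array: blastocysts of slide 1 (squares), blastocysts of slide 2 (diamonds) and ooplasts (circles, open where 1 array was not above background). The fourth Smc2 probe lies between 1.38 and 2.21 in all 3 pairs, and the inner Smc4 probe lies at -2.07 in ooplasts and at 0.40 and 0.56 in blastocysts.

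For ooplasts there was 1 array per age and no test. Of the 13 condensin probes above background on both, 3 were at least 2-fold higher and 1 at least 2-fold lower in climacteric ooplasts. Of all 15532 probes so measured, 17.3% differed by 2-fold or more, 7.38% upward and 9.93% downward. With the 75th percentile taken over probes above background on all arrays, the split turned to 1608 higher and 1282 lower, against 1147 and 1542. The members' median was 0.18, against 0.14 over all. These values hold for 1 pair of arrays, and the climacteric array is the one of the pair with the higher summed level of macrophage markers.

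The 4 differences came from 4 genes. The fourth Smc2 probe was at 0.61 in climacteric and -0.77 in young ooplasts, 2.60-fold higher. Ncaph2 near its 3′ end was at 2.88 in climacteric and 1.86 in young ooplasts, 2.03-fold higher. The inner Ncapd2 probe was at 0.58 in climacteric and -0.58 in young ooplasts, 2.23-fold higher. The inner Smc4 probe was at -1.65 in climacteric and 0.42 in young ooplasts, 4.20-fold lower. Under normexp the inner Smc4 probe alone kept a 2-fold difference, with a log2 difference of -1.21. Just short of 2-fold were the inner Ncapg probe (log2 difference -0.98) and the leading Smc4 probe (-0.95). Ncaph was above background on the young ooplast array only. Its bound, at least 4.94-fold lower in climacteric ooplasts, equals the observed difference of 1 pair of arrays and carries their error. Closer between climacteric and young ooplasts were Ncapg2, at 3.75 and 3.85, Smc2 near its 3′ end, at -0.82 and -0.79, and Ncapd3, at 2.06 and 2.38, and the Ncapg2 difference of -0.09 changed sign under other scalings.

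Of the genes listed beside condensin, 1 of 23 measured genes of other SMC complexes was at least 2-fold higher in climacteric ooplasts and none lower. Of 23 condensation partners none was higher and 4 were lower. Over all probes so measured, 7.38% were higher and 9.93% lower, and the lists are too short to set such counts apart from these shares. These 4, named after their values were seen, were Aurka (log2 difference -2.08), Set (-1.36), Top2a (-1.21) and Mcph1 (-1.11). None of the 14 replication genes differed 2-fold. In blastocysts none of these genes passed for age, of 27, 26 and 14 tested. The 4 lower partners and the lower Smc4 probes are values of 1 pair of arrays.

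Whether the age difference itself differed between the stages was tested with the interaction of stage and age over 24191 probes. None of the 14 condensin probes passed, against 0.422% of all probes, 0.401% higher and 0.0207% lower. An unadjusted p below 0.05 was seen for 8.95% of all probes and for 2 of the 14 condensin probes. The inner Smc4 probe had an age difference 2.55 ± 0.68 higher in blastocysts than in ooplasts (limma adjusted p = 0.33), and Ncaph one 2.43 ± 0.94 higher (limma adjusted p = 0.556). The fourth Smc2 probe, with untested or uncalled age differences of 2.20 in blastocysts and 1.38 in ooplasts, had a difference between them of 0.82 ± 0.54 (limma adjusted p = 0.801). The ooplast groups have 1 array each and are taken to vary like the blastocyst arrays.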

How the data were processed

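RNA of ooplasts and blastocysts was read on 6 single-colour (Cy3) Agilent arrays. Per the file headers, spot intensity came from Feature Extraction (9.5 per the submitters' processing notes), and the deposited processed signal was corrected by spatial and multiplicative detrending, with surrogate values near background and no scaling between arrays; probe positions are on mm8. The value table that the authors deposited is in log2 units with column medians of 6.25. It lay within 0.00075 of a linear-scale quantile normalization of those signals, with a rank correlation of 1 with each array. Precision is limited by the number of arrays.

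Levels are log2 processed signal minus the 75th percentile of 43379 non-control spots. Spots of a probe were averaged, outlier spots were dropped and saturated spots kept. Each probe was a row of the fit and entered the fit if all arrays of 1 or more of the groups compared had it well above background. limma 3.58.1 (R 4.3.3; two-sided, Benjamini-Hochberg, threshold 0.05) tested stage on 6 arrays with age as a term, age on 4 blastocyst arrays, and their interaction. Single ooplast arrays were compared without a test, at 2-fold. Each fit was first tested on simulated data with known changes, which were recovered in part for stage, seldom where small, and not at all for age in blastocysts or the interaction. A bound sets the brighter group's mean against, on each dim array, the higher of the probe's own signal and the dimmest signal well above background.

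The 8 members, the gene lists and the rule for named genes were chosen with earlier results of these data known. All member probes are named, the brightest leads its gene, and up to 4 genes per list and direction with the largest stage change past the threshold are named. Gene names of the lists came from RefSeq (GRCm38.p6, names only). The values of 1 marker gene are not reported here. No mm8 annotation was used here, so exons and UTRs are not given. Alternatives were other scalings, background corrections and filters, 1 row per gene name, the replicate block and leaving out each array. The replicate deviations of the blastocyst groups correlated at 0.142 over 2 pairs, too few to show pairing.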

Additional observations from a re-analysis of the deposited data

How the results depend on the processing

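Condensin calls for stage numbered between 8 and 13 of the probes tested under every alternative except 2: 5 (3 higher, 2 lower) with 1 row per gene name, which keeps only leading probes, and 7 (4 higher, 3 lower) on climacteric arrays alone. Leaving out 1 array gave 8 to 11. All probes called for stage were 29233 (7621 higher, 21612 lower) with no filter and 9793 (3787 higher) when above background on all arrays, against 15480. With replicate number, here the slide, as a replicate block, 10 condensin probes and 14302 probes passed for stage; it cost the Ncapd3 call and no other condensin call. The interaction had 102 probes called (97 higher, 5 lower), 279 (273 higher) under normexp, and 0 under quantile normalization, the authors' values, the replicate block and without each blastocyst array; the cause was not tested. Age in blastocysts had 0 probes called under all alternatives. In ooplasts 1610 probes (534 higher, 1076 lower) were 2-fold apart under normexp, 6972 (3664, 3308) with no filter, and 4768 (2141, 2627) when above background on at least 1 ooplast array, an alternative chosen after seeing the data; condensin probes 2-fold apart were 1 under normexp and 1 with 1 row per gene name. Higher counts in ooplasts were 1615 by quantile, 1608 by the detected-probe percentile and 1660 by the authors' values. The condensin II mean stage change was -0.27 by quantile, -0.30 by the detected-probe percentile and the authors' values, and 0.21 by normexp. Uncalled age differences changed sign for Ncaph (-0.010 by quantile, -0.011 by the authors' values, -0.13 by normexp), for Ncapd3 (0.0039 by the detected-probe percentile), and when 1 array was left out: Ncaph -0.45 to 0.70, leading Ncapg -0.028 to 0.15, inner Ncapg -0.056 to 0.68, Smc2 3′ probe -0.076 to 0.63, leading Smc4 -0.69 to 0.13, leading Ncapd2 -0.012 to 0.13, leading Ncaph2 -0.080 to 0.32. For the interaction the Smc2 3′ probe ran from -0.044 to 0.66 and the inner Ncaph2 probe from -0.025 to 0.37.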
